A study of Mus musculus with 10 samples.

Results

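The 10 imprinted growth genes Igf2, H19, Cdkn1c, Dlk1, Meg3, Peg3, Mest, Plagl1, Grb10 and Igf2r were followed through 9 lists of open chromatin from the developing mouse heart. Peaks of assay for transposase-accessible chromatin with sequencing (ATAC-seq) were kept where their summit, the position of strongest signal, lay inside or within 25 kb of 1 of these genes on mm10. This gave 1316 of 1071660 summits over the 9 lists. Of these, 1150 fell into 210 of 184764 non-overlapping regions reaching 250 bp to either side of a summit, and 40 of the 210 held a summit in every list while 39 held one in a single list. By distance, the region nearest to the 25 kb limit on its inner side lay 24.5 kb from Igf2r with a mean percentile of 62.5, and the nearest beyond it lay 25.1 kb from Meg3 with a mean percentile of 4.68.

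Rosa26tdTomato;Wt1CreERT2/+ embryos had been given tamoxifen at E9.5, so that cells expressing Wt1 and their descendants carried tdTomato. Epicardial cells, sorted as CD31-, tdTomato+ and PDPN+, came from E11.5 (3 libraries, 6 pooled hearts each) and E17.5 (3 libraries, 4 pooled hearts each). Epicardium-derived cells (EPDC), sorted as CD31-, tdTomato+ and PDPN-, came from E12.5 (1 library) and E13.5 (2 libraries, 4 to 13 pooled hearts, the second made from 2 technical replicates). Between 40000 and 50000 cells were sorted per sample, the labels give 1 genotype for all groups without saying which reporter allele or how many copies each sample had, and E13.5 epicardium was not analysed here. The label depends on the Wt1 promoter and each library is a pool of hearts, so a value is an average over cells, hearts and both parental alleles. Fewer cells with an open site and less opening per cell cannot be told apart.

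Imprinted genes are expressed mainly from 1 parental chromosome, set by methylation that the germ line leaves on a control region. Igf2, Dlk1, Peg3, Mest and Plagl1 are active on the paternal chromosome, and H19, Cdkn1c, Meg3 and Igf2r on the maternal one, while Grb10 switches with the tissue. IGF2 is a fetal growth factor, IGF2R clears it from the cell surface and GRB10 dampens insulin and IGF receptor signalling. CDKN1C is an inhibitor of cyclin-dependent kinases, DLK1 a Notch-related transmembrane protein, PLAGL1 and PEG3 are zinc-finger proteins, MEST belongs to the alpha/beta hydrolase family, and H19 and Meg3 are long non-coding RNAs. The epicardium is a known source of IGF2 for the growing myocardium.

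The value used throughout is the percentile of a summit among all summits of its own library by -log10 p, where 100 is the strongest summit and 0 means that the element held no summit. The lists held 119386 to 142743 summits at E11.5, 94909 to 127933 at E17.5 and 102002 to 131830 in EPDC. No read counts accompanied the lists, so sequencing depth is unknown. The median difference between stages over the 57768 regions found in all 6 epicardial libraries was -3.04 percentile points, and stage differences are read beside it. EPDC lists also carried 25 to 47 mitochondrial summits and -log10 p values of up to 70107. Epicardial lists held no mitochondrial summits and -log10 p values of 891 at most. EPDC came from E12.5 and E13.5, days that neither epicardial group shares. List making, embryonic day and cell population therefore cannot be told apart in the comparison of EPDC with epicardium. Promoters of epicardial markers fitted the sort in part. Wt1 stood between the 90.4 and 97.5 percentiles in all 9 libraries, Upk3b at 97.0 or above in the 6 epicardial libraries and at 73.6, 22.8 and 46.1 in EPDC, and Pecam1, Cdh5, Tie1, Ptprc and Myh6, which define endothelium, blood and myocardium, had no summit in any library. Of the 6 mural markers, 4 (Acta2, Tagln, Myh11 and Rgs5) were lower at E17.5 with no overlap, and the mean percentile over the list was 84.6 to 87.1 at E11.5, 65.0 to 76.3 at E17.5 and 85.9 to 88.2 in EPDC. The mean over the 7 mesenchyme markers was 51.2 to 55.4, 59.5 to 69.9 and 68.3 to 77.5 in the same order. These lists moved with the stage and population differences below, and their part in them was not tested.

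Regions at known control elements carried recognisable letters, read from the mm10 genome on the strand of the gene. The first pair lies in the control region between Igf2 and H19, where CTCF binds the unmethylated maternal copy and insulates Igf2 from enhancers beyond H19. Capitals mark the match to the CTCF pattern of that control region. They are 2.3 kb (chr7:142580228-142580427, minus strand) and 3.7 kb (chr7:142581698-142581897, minus strand) upstream of H19.
H19 2.3 kb upstream: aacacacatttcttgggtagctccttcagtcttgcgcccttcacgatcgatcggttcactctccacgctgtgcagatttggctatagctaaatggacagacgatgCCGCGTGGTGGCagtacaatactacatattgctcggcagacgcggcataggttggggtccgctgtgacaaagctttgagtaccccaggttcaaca
H19 3.7 kb upstream: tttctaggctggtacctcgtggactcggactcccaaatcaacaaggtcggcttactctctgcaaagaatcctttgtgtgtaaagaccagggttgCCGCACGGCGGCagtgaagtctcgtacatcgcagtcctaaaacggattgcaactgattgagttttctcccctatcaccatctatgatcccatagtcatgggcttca
That pattern occurred in 622 of the 184764 regions (0.337%) and in 5 of the 210 at the growth genes, and 2 of those 5 are the regions shown.

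The next sequence is from the intergenic control region between Dlk1 and Meg3, 12.4 kb upstream of Meg3 (chr12:109528317-109528566, plus strand). Capitals mark TGCCGC, the methylation-dependent motif of ZFP57, a protein that preserves germline imprints.
Meg3 12.4 kb upstream: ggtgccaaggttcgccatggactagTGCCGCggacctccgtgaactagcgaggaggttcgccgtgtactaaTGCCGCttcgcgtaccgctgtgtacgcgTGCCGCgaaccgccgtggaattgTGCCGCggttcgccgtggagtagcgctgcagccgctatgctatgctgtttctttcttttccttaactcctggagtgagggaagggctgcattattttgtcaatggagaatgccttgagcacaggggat
It held 4 copies, the most of any region at these loci but for the Mest start described below, which held 5. TGCCGC was present in 10.1% of all regions and in 33 of the 210 (15.7%). In the first intron of Peg3, capitals mark GCCATNTT, a YY1 motif that was added to the search after the values had been seen (chr7:6728449-6728748, minus strand).
Peg3 1.8 kb downstream of its start: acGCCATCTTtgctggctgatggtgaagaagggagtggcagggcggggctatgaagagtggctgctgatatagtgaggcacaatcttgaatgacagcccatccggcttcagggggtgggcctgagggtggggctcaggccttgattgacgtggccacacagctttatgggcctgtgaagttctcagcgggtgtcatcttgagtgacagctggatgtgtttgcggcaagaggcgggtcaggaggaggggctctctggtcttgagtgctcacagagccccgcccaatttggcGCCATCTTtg
That region held 3 matches, of which 2 fall in the stretch shown, the region next to it held 3, and of the 2 regions within 1 kb of the Peg3 start the one at 0.8 kb held 2 and the one at the start itself 0, while 7.42% of all regions held any. The CTCF consensus is in capitals in a region of Dlk1 (chr12:109437838-109437987, plus strand) and another of Meg3 (chr12:109542971-109543120, plus strand), shown because both were lower in EPDC than in epicardium.
Dlk1 14.8 kb upstream: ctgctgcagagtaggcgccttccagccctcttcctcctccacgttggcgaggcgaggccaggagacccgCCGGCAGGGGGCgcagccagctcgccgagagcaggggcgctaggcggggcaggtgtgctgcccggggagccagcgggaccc
Meg3 2.0 kb downstream of its start: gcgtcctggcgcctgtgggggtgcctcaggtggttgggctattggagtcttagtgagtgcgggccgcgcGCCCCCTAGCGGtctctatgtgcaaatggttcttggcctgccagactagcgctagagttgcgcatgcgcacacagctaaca
Both strands were searched, and TGCCGC, GCCATNTT and both CTCF patterns may overlap by a few letters. A match is a description of letters and not evidence of binding.

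Among the 5′ ends of the gene records, the most open was that of Cdkn1c, at a like level in all groups. Its percentiles were 93.2, 93.1 and 93.8 at E11.5, 92.6, 94.2 and 90.5 at E17.5, and 93.7, 94.2 and 91.6 in EPDC. The 3 groups overlapped fully, and the stage difference was -0.91 points (exact permutation test, 2-sided p = 0.5, n = 3 and 3). Meg3 stood between 71.5 and 82.7 and Peg3 between 66.1 and 83.4 in all libraries, with overlapping groups in both comparisons.

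H19 was the promoter that opened most between the stages. It stood at 49.7, 61.8 and 51.2 at E11.5 and at 77.9, 80.1 and 79.0 at E17.5, which is 54.2 ± 6.56 against 79.0 ± 1.07 (SD, n = 3 each). Every E17.5 library was above every E11.5 library, the difference was 24.8 points, and the exact permutation test gave p = 0.1, the smallest that 3 against 3 libraries allow. Its fold enrichment over background was 3.16, 3.72 and 3.33 in E11.5 libraries and 7.26, 6.99 and 6.84 in E17.5 libraries, a rise of 1.02 ± 0.15 (SE) on the log2 scale (limma, adjusted p = 8.46e-05). EPDC stood at 63.5, 76.6 and 77.1, all above E11.5 and below E17.5.

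The Dlk1 promoter was also higher at E17.5, at 87.5, 88.2 and 89.5 against 81.8, 81.3 and 81.1. The difference was 7.06 points with no overlap, and the log2 fold enrichment rose by 0.65 ± 0.14 (limma, adjusted p = 0.00159). In EPDC it stood at 73.5, 78.1 and 81.0, below all 6 epicardial libraries (difference -7.37 points, exact permutation p = 0.0238, the smallest that 3 against 6 allow). That order was lost when summits were ranked by fold enrichment, where the difference became 0.34 points with overlap, and log2 fold enrichment did not pass (limma, 0.01 ± 0.12, adjusted p = 0.938). The Igf2r promoter overlapped between the stages, at 70.4 to 74.8 and 73.6 to 79.8, and was spread widely in EPDC at 51.7, 62.1 and 76.8, with log2 fold enrichment lower by 0.37 ± 0.13 in EPDC (limma, adjusted p = 0.0329).

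The 5′ ends of the Igf2, Mest, Plagl1 and Grb10 gene records were silent or weak, and the open starts lay further in. Igf2 had no summit within 1 kb of its 5′ end in any library, and Mest had one only in the second E13.5 EPDC library, at 22.9. At the 5′ end of Plagl1, E11.5 stood at 44.4, 41.9 and 39.8 and E17.5 at 0, 9.84 and 0, a change of -38.7 points with no overlap. At Grb10 the 5′ end was open in 2 E11.5 libraries and 1 EPDC library. The start 30.3 kb into Plagl1 stood between 91.4 and 96.0 in all 9 libraries, the Mest start at 14.5 kb between 71.3 and 83.5, and the Grb10 start at 1.3 kb between 71.1 and 84.05. None of these 3 separated the groups in either comparison.

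Igf2 has several promoters, and 2 of its inner starts were open. A further start at 5.5 kb had a summit in 1 E17.5 library alone, at 18.3. The start at 7.3 kb stood at 64.2, 67.8 and 49.4 at E11.5, at 54.4, 60.8 and 71.5 at E17.5 and at 67.7, 64.7 and 69.0 in EPDC, with overlapping groups. The start at 9.3 kb divided the groups. Its window stood at 49.6, 51.0 and 54.2 at E11.5, at 24.5, 39.7 and 41.8 at E17.5 and at 68.1, 60.2 and 68.1 in EPDC, so that E17.5 lay lowest and EPDC highest with no overlap. The region that holds this start is centred 9.1 kb into the gene (chr7:142657469-142657969). Its own summits stood at the same values as the window at E11.5 and in EPDC but at 0, 21.9 and 0 at E17.5, a stage difference of -44.3 points against -16.3 for the window. Part of it (chr7:142657770-142657969, minus strand) is shown with GGAATG, the TEAD motif, in capitals on either strand.
Igf2 9.1 kb downstream of its 5′ end: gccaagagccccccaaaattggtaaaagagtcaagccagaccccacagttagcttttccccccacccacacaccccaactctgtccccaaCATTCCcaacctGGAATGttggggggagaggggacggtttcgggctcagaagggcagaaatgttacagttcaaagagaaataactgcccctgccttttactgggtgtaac
It held 3 such matches, of which 2 fall in the stretch shown, on opposite strands, and 33.1% of all regions held at least 1.

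**Figure D1:**
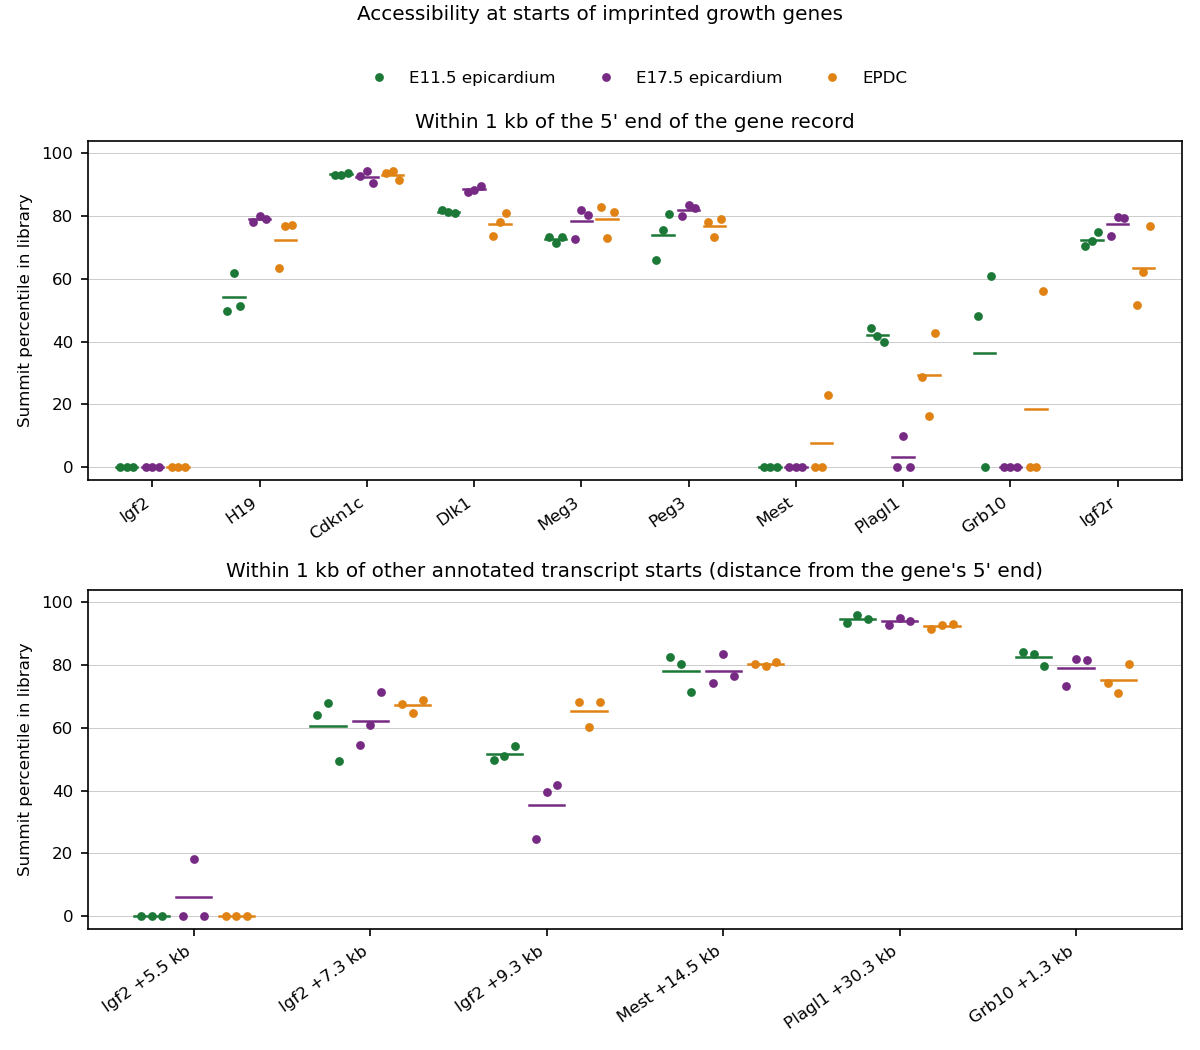
Percentile of the strongest summit in each library (vertical axis, 0 to 100, 0 for no summit) within 1 kb of the 5′ end of each gene (upper panel) and of its other annotated starts with a summit (lower panel). Points are libraries, lines are group means, and colours are E11.5 epicardium, E17.5 epicardium and EPDC. H19 and Dlk1 are higher at E17.5 than at E11.5, Cdkn1c is level at 90.5 to 94.2, and Igf2, Mest, Plagl1 and Grb10 are open at inner starts.

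Over the 8 member promoters with a summit in an epicardial library, 2 (H19 and Dlk1) were higher at E17.5 with no overlap of the groups and 1 (Plagl1) was lower. Over all 21585 promoters tested, 11.4% were higher and 27.5% lower by the same rule. In EPDC against the 6 epicardial libraries, none of 9 was higher and 1 (Dlk1) was lower, against 7.65% and 9.25% of 22795 promoters. These counts are too small to set the growth genes apart from other promoters.

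Across the 210 regions, 12 lay within 1 kb of a gene's 5′ end, 101 inside the genes, 57 upstream and 52 downstream. Between the stages, 30 of the 186 regions with an epicardial summit were higher at E17.5 with no overlap (16.1%, background 12.6%) and 52 were lower (28.0%, background 31.5%). Their median difference was -3.21 points, against -4.57 over 160374 regions. In EPDC, 21 of 210 were higher than every epicardial library (background 9.36%) and 15 were lower (7.14%, background 8.09%). The shares were near those of all regions in each case, so what follows describes individual elements. When the 94909 strongest summits were taken from every list, 35 of 128 regions were higher at E17.5 and 25 lower, against 21.1% and 24.5% of all regions. The limma fit on log2 fold enrichment, which takes only regions found in every library compared, called 12 of 56 higher at E17.5 (19.1% of all regions) and 9 lower (15.9%), and 12 of 40 higher in EPDC (20.7%) and 6 lower (19.9%).

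**Figure D2:**
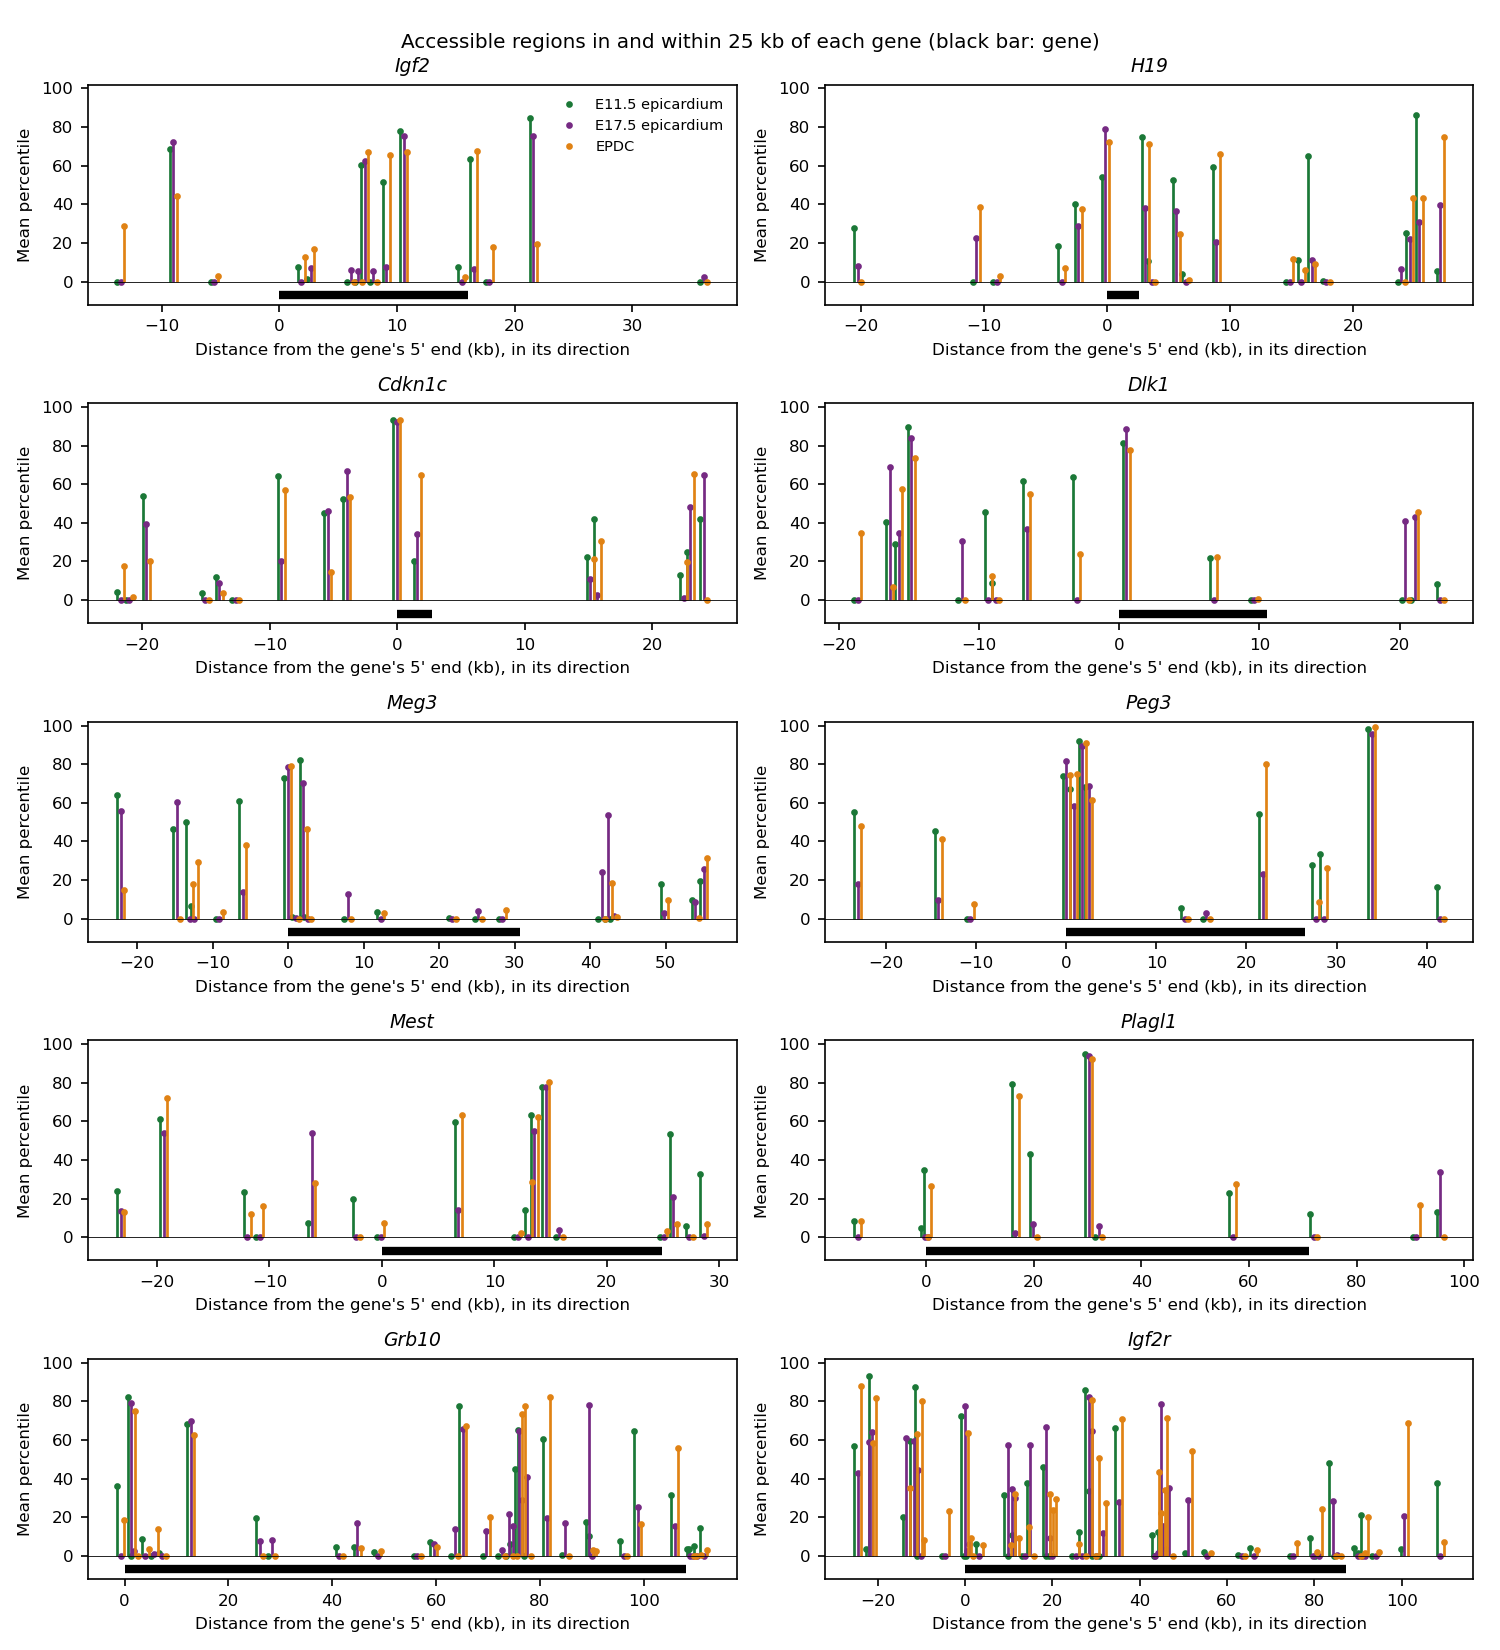
Regions at each locus by distance from the gene's 5′ end in kb (horizontal axis, positive in the direction of transcription) and mean percentile (vertical axis, 0 to 100) in E11.5 epicardium, E17.5 epicardium and EPDC. Black bars are the genes. The Cdkn1c start and the inner Plagl1 start carry sticks of similar height in all 3 colours, while sticks at Grb10 89.5 kb and Igf2r 44.9 kb are tallest at E17.5.

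At the H19 end of the Igf2-H19 domain, in which shared enhancers beyond H19 are known to serve both genes, accessible regions changed places between the stages. The region 25.4 kb beyond the H19 start, in an intron of the non-coding gene Nctc1 (chr7:142552527-142553027), stood at 83.04, 88.7 and 86.2 at E11.5 and at 21.1, 52.5 and 18.4 at E17.5. All E11.5 libraries were higher, by 55.3 points, and log2 fold enrichment fell by 1.03 ± 0.17 (limma, adjusted p = 2.66e-04). A little further, at 27.1 kb, the order turned, with 12.0, 0 and 4.52 at E11.5, 44.2, 34.0 and 40.4 at E17.5 and 65.0, 78.0 and 81.9 in EPDC. The 3 groups did not overlap there, and EPDC stood highest.

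Nearer to H19, the region 3.1 kb past its start stood at 72.5 to 76.9 at E11.5 and in 2 of 3 E17.5 libraries below 33, with EPDC at 69.1 to 72.5. Its log2 fold enrichment fell by 0.51 ± 0.19 at E17.5 (limma, adjusted p = 0.0463). The control region itself was weakly open. The region 2.3 kb upstream stood at 46.5, 34.3 and 39.2 at E11.5, 4.59, 43.0 and 39.1 at E17.5 and 34.4, 28.8 and 48.6 in EPDC, with overlap throughout, and the one 3.7 kb upstream at 17.6, 10.1 and 27.0 at E11.5, at 0 in every E17.5 library and at 0, 0 and 21.2 in EPDC. Both were named for their place and not by their values.

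Beyond the 3′ end of Igf2, 2 regions were lower at E17.5, and 1 of them was low in EPDC. The region 16.5 kb from its 5′ end (chr7:142650044-142650544) stood at 63.1, 56.5 and 70.4 at E11.5, at 2.79, 16.1 and 0 at E17.5 and at 67.7, 67.6 and 67.5 in EPDC. It was lower at E17.5 by 57.0 points with no overlap, while EPDC lay within the E11.5 range. The region 21.6 kb from the 5′ end (chr7:142644993-142645493) stood at 88.7, 84.02 and 81.8 at E11.5, at 73.5, 81.1 and 70.8 at E17.5 and at 34.4, 0 and 23.3 in EPDC. It was 9.66 points lower at E17.5 with no overlap, an order that turned to 3.28 points higher when summits were ranked by fold enrichment, and its log2 fold enrichment did not pass (limma, 0.23 ± 0.15, adjusted p = 0.265). EPDC lay below all 6 epicardial libraries, a difference of -60.8 points and the largest fall in EPDC at any of the 10 loci (exact permutation p = 0.0238). Within the gene, the region at 10.6 kb was open in every library, at 72.8 to 82.2 in epicardium and 64.4 to 68.9 in EPDC, where log2 fold enrichment differed by -0.28 ± 0.15 and did not pass (limma, adjusted p = 0.138).

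Cdkn1c, on the same chromosome in a separate domain, kept its promoter level while a distal region 24.0 kb past its start did not. That region stood at 42.5, 52.4 and 30.4 in E11.5 libraries and 65.8, 66.9 and 61.0 in E17.5 libraries, and no EPDC library had a summit there. The stage rise was 0.70 ± 0.16 in log2 fold enrichment (limma, adjusted p = 0.00324). In an intron of the gene, 1.6 kb from the start and named after its values were seen, EPDC was higher than all epicardial libraries, at 61.1, 62.8 and 70.1 against 0.25 to 36.3, and log2 fold enrichment was higher by 0.76 ± 0.14 (adjusted p = 4.53e-04). The region 9.1 kb upstream was at 0 in 2 E17.5 libraries and at 60.9 in the other one, against 58.1 to 68.5 at E11.5 and 48.7 to 71.0 in EPDC. The region 4.0 kb upstream stood higher at E17.5, at 61.3, 75.9 and 63.4 against 60.1, 46.5 and 51.0, and its difference of 0.39 ± 0.16 in log2 fold enrichment did not pass (limma, adjusted p = 0.0640).

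In the Dlk1-Meg3 domain, a pair of regions upstream of Meg3 was open in epicardium and low or closed in EPDC. The region 14.8 kb upstream of Meg3 stood at 37.9, 54.8 and 47.0 in E11.5 libraries and 53.1, 66.5 and 61.8 in E17.5 libraries, while all 3 EPDC libraries were at 0 (difference -53.5 points, exact permutation p = 0.0238). Its log2 fold enrichment rose by 0.61 ± 0.15 between the stages (limma, adjusted p = 0.00476). At 22.1 kb upstream, E11.5 stood at 63.2 to 65.2, E17.5 at 53.2 to 57.2 and EPDC at 0, 4.52 and 40.6, and the stage difference in log2 fold enrichment did not pass (limma, -0.03 ± 0.13, adjusted p = 0.900). The region with 4 ZFP57 motifs behaved otherwise, since it was at 0, 19.4 and 0 at E11.5, at 0 throughout E17.5 and at 37.4, 51.1 and 0 in EPDC. A peak interval overlapped it in all 9 libraries, at 37.4 to 65.9. It was named for its place in the control region.

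The region with a CTCF consensus 2.0 kb into Meg3 was ordered E11.5, E17.5, EPDC with no overlap. It stood at 82.1, 82.1 and 82.97, then at 69.0, 70.4 and 71.1, then at 54.3, 30.2 and 55.0. Log2 fold enrichment fell by 0.57 ± 0.15 at E17.5 (adjusted p = 0.00648) and was 0.52 ± 0.15 lower in EPDC (adjusted p = 0.0108). At the Meg3 promoter itself, percentiles overlapped, yet fold enrichment was 5.80 to 7.27 in epicardium and 13.9, 9.56 and 9.69 in EPDC, higher by 0.65 ± 0.14 on the log2 scale (limma, adjusted p = 0.00120). The start and a region 2.0 kb inside the same gene therefore differed in EPDC in opposite directions by this measure.

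At Dlk1 the strongest distal element, 14.8 kb upstream and also holding a CTCF consensus, stood at 80.0 to 92.5 in epicardium and at 73.9, 70.4 and 76.4 in EPDC. The difference was -13.3 points with no overlap, and log2 fold enrichment was 0.43 ± 0.16 lower (limma, adjusted p = 0.0403). The region 3.0 kb upstream was at 60.4, 66.9 and 63.2 at E11.5 and at 0 in all E17.5 libraries, but peak intervals reached it at 30.8, 64.7 and 41.7 there, so that the groups overlapped by that measure. The region 6.6 kb upstream overlapped between the groups, at 49.1, 73.2 and 62.0 in E11.5 libraries, 0, 59.0 and 52.1 in E17.5 libraries and 59.3, 43.4 and 61.4 in EPDC. Beyond Meg3, towards the microRNA cluster, the region at 42.4 kb stood at 0.21, 0 and 0 in E11.5 libraries and at 50.9, 66.9 and 43.5 in E17.5 libraries, higher by 53.7 points with no overlap.

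Peg3 held an intronic region that was level across the libraries. That region, 1.8 kb from its start, with its sequence given above, stood between 88.0 and 93.1 in all libraries with overlapping groups. Its neighbour 2.5 kb from the start was lower in EPDC by summit, at 56.6, 64.7 and 63.0 against 65.7 to 71.4, but took the value of the region at 1.8 kb, with overlap, when peak intervals were counted. The strongest region of the locus, at 97.7 to 99.05 at E11.5, 94.4 to 97.1 at E17.5 and 98.9 to 99.2 in EPDC, was lower at E17.5 by percentile with no overlap and did not pass in log2 fold enrichment (limma, 0.21 ± 0.09, adjusted p = 0.0884). It lies 101 bp from the start of the neighbouring zinc-finger gene Zim1 and so in the promoter window of that gene. Near the 3′ end of Peg3, in an exon at 21.8 kb, the groups did not overlap at all, with 53.8, 56.0 and 52.1 at E11.5, 24.2, 22.0 and 23.5 at E17.5 and 79.0, 82.0 and 78.9 in EPDC. Log2 fold enrichment was 1.10 ± 0.14 higher in EPDC than in epicardium (limma, adjusted p = 1.97e-05), while the stage difference was -0.33 ± 0.16 and did not pass (adjusted p = 0.112). The regions at 2.5 and 21.8 kb were named after their values were seen.

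Mest and Plagl1 each kept an open inner start and had an intronic region that was lower at E17.5. In Mest, the region at 6.8 kb stood at 67.5, 65.7 and 46.1 at E11.5, at 10.8, 12.4 and 19.3 at E17.5 and at 50.03, 66.5 and 73.8 in EPDC. Its log2 fold enrichment fell by 0.77 ± 0.18 between the stages (limma, adjusted p = 0.00336). In Plagl1, the region at 16.5 kb (chr10:13076802-13077302) stood at 76.4, 84.6 and 76.9 at E11.5, at 0, 7.28 and 0 at E17.5 and at 77.2, 68.7 and 74.1 in EPDC. That was the largest stage fall at the 10 loci by summit percentile, 76.9 points with no overlap, and EPDC lay beside E11.5. The Mest region at 6.8 kb was also named after its values were seen. Upstream of Mest, 19.4 kb from the 5′ end, a region stood at 55.8 to 70.7 at E11.5, 47.0 to 57.8 at E17.5 and 60.7, 77.0 and 77.9 in EPDC, higher in EPDC by 0.52 ± 0.15 in log2 fold enrichment (adjusted p = 0.0119).

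By summit percentile, the 2 largest stage gains were intronic and lay in Grb10 and Igf2r, genes that restrain growth signalling at the receptor. In Grb10, the region 89.5 kb from the 5′ end (chr11:11948900-11949400) stood at 11.6, 26.9 and 14.3 at E11.5, at 75.6, 78.6 and 80.1 at E17.5 and at 0, 9.14 and 0.76 in EPDC. It rose by 60.5 points and by 1.56 ± 0.15 in log2 fold enrichment (limma, adjusted p = 3.90e-06). In Igf2r, the region at 44.9 kb (chr17:12724506-12725006) stood at 3.34, 28.0 and 5.28 at E11.5 and at 78.6, 79.9 and 77.9 at E17.5, with 38.5, 0 and 63.2 in EPDC. It rose by 66.6 points and by 1.63 ± 0.16 in log2 fold enrichment (limma, adjusted p = 4.49e-06). Counted by peak intervals the Igf2r gap was smaller than that of several other regions and still free of overlap, with 57.0, 35.2 and 61.2 in E11.5 libraries against the same E17.5 values, and EPDC then stood at 71.0, 78.9 and 81.3. The 200 bases at their centres are shown with GGAATG (TEAD) or TGANTCA (AP-1) in capitals on either strand, at chr11:11949050-11949249 and chr17:12724656-12724855 (both minus strand).
Grb10 89.5 kb downstream of its 5′ end: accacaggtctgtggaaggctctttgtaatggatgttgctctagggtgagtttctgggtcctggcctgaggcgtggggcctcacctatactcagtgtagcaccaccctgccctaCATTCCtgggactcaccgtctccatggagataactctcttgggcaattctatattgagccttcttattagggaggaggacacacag
Igf2r 44.9 kb downstream of its 5′ end: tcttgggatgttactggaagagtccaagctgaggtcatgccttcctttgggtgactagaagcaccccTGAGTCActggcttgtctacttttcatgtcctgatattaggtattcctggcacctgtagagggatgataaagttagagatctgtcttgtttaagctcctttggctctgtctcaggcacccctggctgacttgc
Grb10 held a single GGAATG and Igf2r a single TGANTCA, a motif present in 22.8% of all regions.

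Grb10 carried a counterpart that moved the other way. The region 81.3 kb from the 5′ end stood at 56.3, 56.5 and 69.5 at E11.5, at 0, 34.99 and 23.7 at E17.5 and at 75.8, 85.2 and 85.5 in EPDC, with no overlap of the 3 groups. It was named after its values were seen. The region at 65.2 kb had a summit in every library and was lower at E17.5 by percentile with no overlap, at 55.2, 73.9 and 68.6 against 77.2, 80.2 and 75.0, but its difference of -0.15 ± 0.14 in log2 fold enrichment did not pass (limma, adjusted p = 0.423).

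Igf2r had the most regions of any locus, 47, and an internal promoter. The antisense RNA Airn, transcribed from the paternal chromosome and needed for imprinting of Igf2r, starts in an Igf2r intron, 10 bp from the centre of a region 28.4 kb into the gene. That region stood at 79.5, 90.2 and 88.1 at E11.5, 75.9, 87.6 and 82.8 at E17.5 and 82.1, 80.6 and 79.7 in EPDC, with overlapping groups. Close to it, 2 regions each had summits in 1 population alone. At 29.2 kb the epicardial libraries stood at 28.8 to 40.8 at E11.5 and 57.4 to 74.8 at E17.5 while EPDC was at 0, and at 30.0 kb all epicardial libraries were at 0 and EPDC stood at 20.0035, 60.1 and 71.7. The first of them rose at E17.5 by 0.72 ± 0.14 in log2 fold enrichment (limma, adjusted p = 0.00107).

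Upstream of Igf2r, within Airn, the strongest region lay at 21.2 kb and stood at 90.95, 94.4 and 94.1 at E11.5, 57.9, 70.9 and 64.1 at E17.5 and 84.8, 78.5 and 81.6 in EPDC. It fell by 0.70 ± 0.14 in log2 fold enrichment between the stages (limma, adjusted p = 0.00118). A region beside it, at 21.9 kb, stood at 0, 0 and 10.9 in E11.5 libraries and 59.5, 60.0 and 58.1 in E17.5 libraries, but when any overlap of a peak interval was counted it was lower at E17.5, by 34.0 points. At 24.5 kb, EPDC stood at 83.7, 88.1 and 91.4, above all epicardial libraries at 34.6 to 66.5, and log2 fold enrichment was 0.95 ± 0.15 higher (adjusted p = 9.59e-05). It was named after its values were seen, as were the next pair. At 10.6 kb upstream the libraries stood at 90.3, 84.3 and 86.9, then 58.0, 38.7 and 37.1, then 81.5, 81.7 and 78.0, lower at E17.5 by 1.05 ± 0.20 in log2 fold enrichment (limma, adjusted p = 9.16e-04). At 13.4 kb upstream the order was the other way, at 7.82, 31.8 and 21.6, then 49.1, 71.5 and 62.6, then 27.3, 38.8 and 40.1, higher at E17.5 by 1.15 ± 0.15 (adjusted p = 3.16e-05). Downstream of the Igf2r start, the regions at 45.4 and 100.6 kb were higher in EPDC by summit, by 58.0 and 56.6 points, and overlapped epicardium when peak intervals were counted. At 100.6 kb the stage difference of 17.4 points became -47.8 by intervals.

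**Figure D3:**
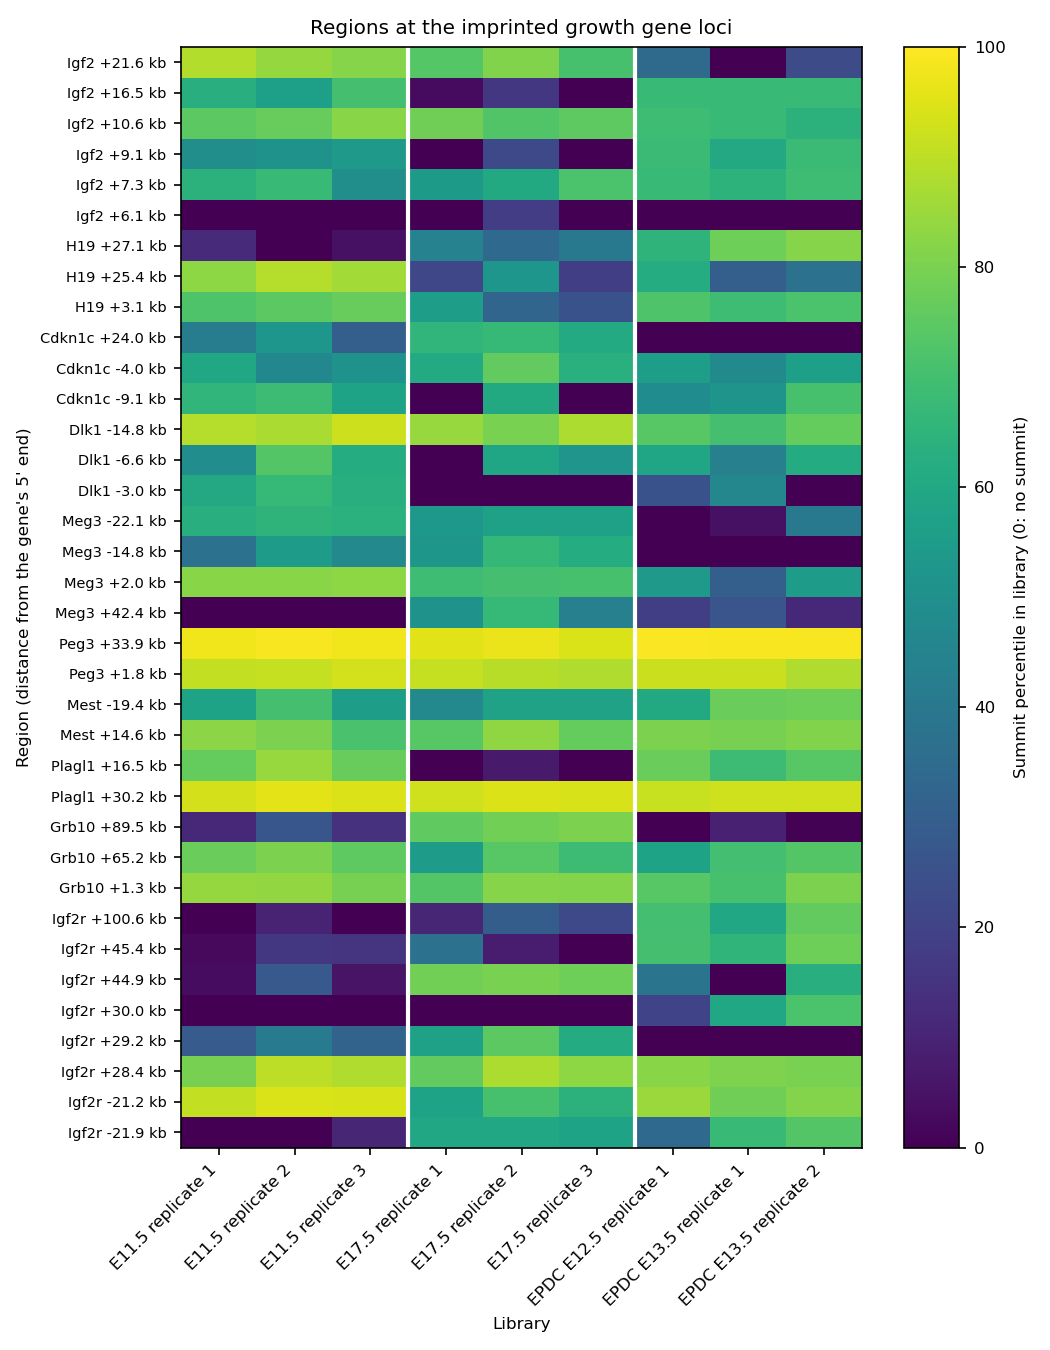
Percentile (colour, 0 to 100, 0 for no summit) of the 36 regions chosen by rule (rows, named by gene and distance in kb from its 5′ end) in the 9 libraries (columns, groups divided by white lines). The rows of Plagl1 30.2 kb and Peg3 1.8 kb keep 1 colour across the white lines, Plagl1 16.5 kb is dark at E17.5 alone, and Cdkn1c 24.0 kb and Meg3 14.8 kb upstream are dark in EPDC alone.

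**Figure D4:**
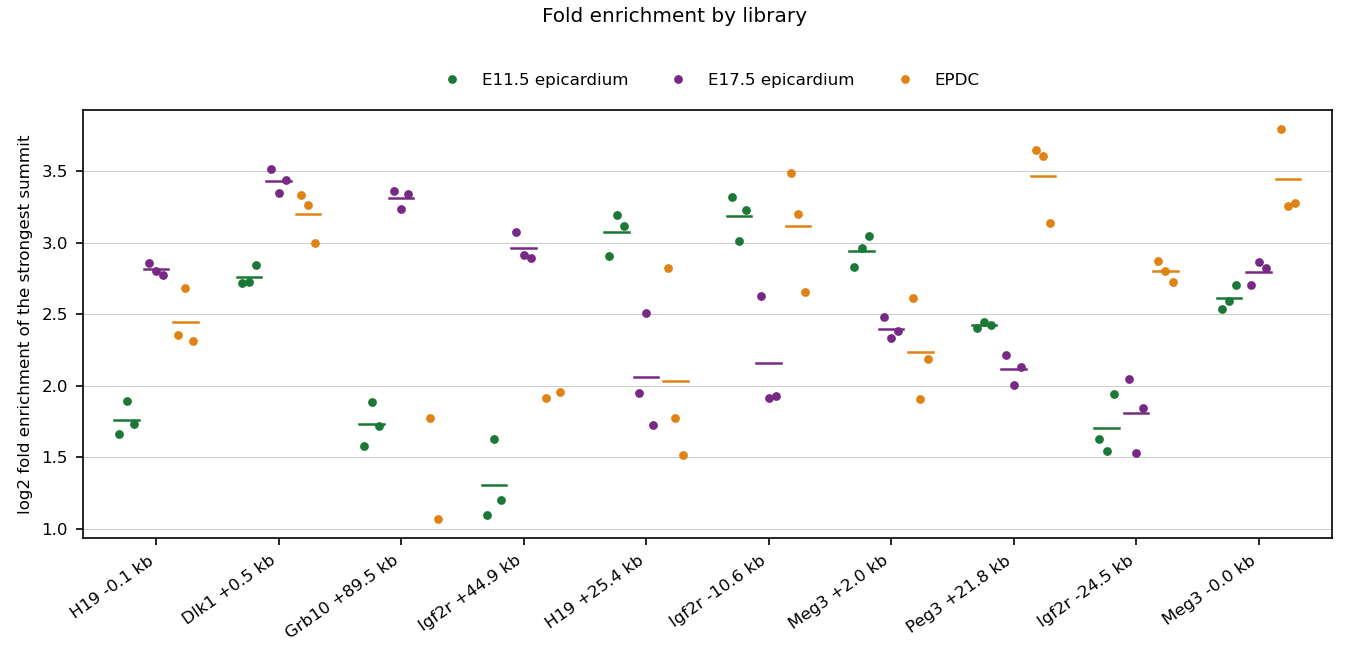
Log2 fold enrichment over background (vertical axis) of the strongest summit in 10 regions by library, with points for libraries and lines for group means, drawn where all libraries of a group had a summit. H19 and Dlk1 starts, Grb10 89.5 kb and Igf2r 44.9 kb are higher at E17.5, and Peg3 21.8 kb, Igf2r 24.5 kb upstream and the Meg3 start are higher in EPDC than in both epicardial groups.

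Motif shares at these loci were near those of all regions for AP-1 and TEAD, higher for ZFP57 and the CTCF pattern of the H19 control region, and lower for the CTCF consensus, as a description with no test. ZFP57 was matched in 33 of 210 (15.7%, all regions 10.1%) and the H19 control region pattern in 5 (2.38%, all regions 0.337%). The latter pattern is that of a control region inside these loci, and 2 of its 5 matches lie there. Part of its higher share was therefore built in by the choice of pattern. AP-1 was matched in 42 of 210 (all regions 22.8%), TEAD in 68 (32.4%, all regions 33.1%) and the CTCF consensus in 4 (1.90%, all regions 3.93%). Among the 30 regions higher at E17.5, 11 held AP-1, and among the 52 lower ones 10 did. TEAD was held by 13 of the higher and 14 of the lower ones, ZFP57 by 2 and 8, and YY1 by 1 and 5. Of the 15 regions lower in EPDC, 3 held the CTCF consensus and these are at Cdkn1c, Dlk1 and Meg3, whereas none of the 21 higher ones held it. Of the lower and higher ones, YY1 was held by 3 and 1, ZFP57 by 4 and 2, AP-1 by 4 and 3 and TEAD by 5 and 9. The shares among all regions called in the same direction were not computed, so these splits cannot be set apart from those elsewhere in the genome. The median GC content was 50.7% against 48.3% over all regions, with a median of 7 CpG in both.

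Other imprinted genes were lower at E17.5 more often than higher, as were all promoters tested (27.5% lower and 11.4% higher). Of 40 listed, 39 were matched and 33 had a promoter summit, 4 were higher at E17.5 with no overlap and 10 lower, and none was higher and 1 lower in EPDC, where 7.65% and 9.25% of all promoters were. Slc22a3, a transporter gene of the Igf2r cluster, stood at 64.4, 63.8 and 49.6 at E11.5 and at 0, 7.28 and 11.2 at E17.5, and Dio3, the thyroid hormone deiodinase gene of the Dlk1 domain, at 82.4, 76.6 and 78.9 against 22.1, 48.1 and 52.0. Mkrn3 also differed downward, by 19.6 points. The 4 that were higher were Ddc, by 46.1 points, Cd81, and Peg10 and Sgce, which share a promoter window and stood at 38.5, 32.6 and 45.5 against 56.4, 50.5 and 58.4. Zrsr1 was the gene lower in EPDC, at 76.9, 76.8 and 77.5 against 80.6 to 90.9.

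Among 20 genes of the IGF system, 19 had a promoter summit, and 3 were higher and 3 lower at E17.5, and 2 higher and 2 lower in EPDC. Over all promoters tested, 11.4% were higher and 27.5% lower at E17.5, and 7.65% higher and 9.25% lower in EPDC. Igfbp6, an IGF-binding protein with preference for IGF2, stood at 67.8, 55.3 and 63.9 at E11.5 and at 80.9, 86.4 and 86.7 at E17.5. Igfbp5, another binding protein, was lower at E17.5, at 53.6, 47.8 and 63.8 against 73.4, 72.2 and 75.5. The other ones were Stc2 and Irs2, higher by 4.79 and 3.87 points, and Igfbp4 and Igf2bp3, lower by 6.82 and 5.62 points. The Igf1 promoter was higher in EPDC than in all epicardial libraries, at 58.3, 64.7 and 70.6 against 31.9 to 53.7, and Igfbp4 was higher by 7.78 points, while Stc2 and M6pr were lower by 8.70 and 0.54 points.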

How the data were processed

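Per the methods of the study, reads were aligned to mm10 in an nf-core workflow, and duplicate, multimapped, blacklisted and mitochondrial reads were removed. The authors called peaks with MACS2 2.2.9.1 at a q of 0.01 with separate summits, and the deposited lists give fold enrichment (a ratio over local background) and the -log10 p-value and -log10 q-value of each summit. EPDC lists retain mitochondrial and scaffold peaks, which were left out. The second E13.5 EPDC list merges 2 technical replicates and counts as 1 library.

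Summits were ranked by -log10 p within each library. Regions are 501 bp windows on the strongest summits, and 166 of the 1316 summits at the loci (12.6%) lay beside a stronger one and in no region. Promoters are windows of 1 kb on either side of the 5′ end of GENCODE vM21 gene records. A difference was called when the groups did not overlap, with exact permutation tests (2-sided) on means, not adjusted for the number of elements. Log2 fold enrichment, centred on the median of each library, was fitted with limma 3.58.1 in R 4.3.3 over all regions present in every library (threshold 0.05, Benjamini-Hochberg over all of them). Nothing states that replicate numbers mark shared hearts or days. Replicates are pools, and p-values of the stage comparison measure the spread between them. The exact test of EPDC takes both epicardial stages as 1 group and E12.5 with E13.5 EPDC as the other. Its p-values therefore also take in differences between stages.

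The genes and lists were chosen with earlier results of these data known. Named regions were every inner start with a region, the 2 outside promoters with the highest mean at each locus, and up to 4 with the largest difference in each direction and comparison, and of each list up to 3 genes per direction, and others are marked as named later. Scripts were tested on simulated data. Alternatives were a q threshold of -log10 q 5, equal numbers of summits, ranking by fold enrichment, peak intervals, a depth-normalised score, other windows, reference groups and centring, a replicate block, and leaving out each library.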

Additional observations from a re-analysis of the deposited data

How the results depend on the processing

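Of the recomputed counts, 137 stayed within 1.5 times of the value reported and 35 did not. Promoters higher at E17.5 numbered 2 as reported, 5 with equal numbers of summits, 5 by a depth-normalised score and 4 with the replicate block, that is, the same direction in all same-numbered pairs. Promoters lower in EPDC numbered 1 as reported, 0 at -log10 q of at least 5, with equal numbers of summits, by fold enrichment, by a depth-normalised score or within 500 bp, 2 over any annotated start and 3 against E17.5 alone. Those higher in EPDC numbered 0 as reported and 1 by fold enrichment, by peak intervals, and against E11.5 or E17.5 alone. Regions lower at E17.5 numbered 25 with equal numbers of summits, and those higher numbered 19 within 10 kb. Regions lower in EPDC numbered 8 with equal numbers of summits, 9 within 10 kb and 25 within 50 kb. Against E11.5 alone 35 were lower and against E17.5 alone 32, and those higher numbered 40 against E17.5 alone. Other windows change how many regions are counted, and separation from 1 stage asks less than separation from both. Shares over all regions were not computed for the windows or the single stages, so these changes are not read as results about the growth genes. The limma counts were 20 higher at E17.5 by a depth-normalised score, and 2 lower in EPDC with quantile normalization or without centring.

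A separation cannot be lost when a library is left out, so counts of separated elements could only stay or rise. No background share was computed for them. With each library left out, 30 to 41 regions were higher and 55 to 65 lower at E17.5. In EPDC, 21 to 34 were higher and 15 to 21 lower. Promoters numbered 2 to 5 higher and 1 to 2 lower at E17.5, and 0 and 1 to 2 in EPDC. The limma calls, which can also fall, numbered 11 to 14 higher and 8 to 10 lower at E17.5. In EPDC they numbered 10 to 16 and 3 to 10. Leaving out 1 library moved a count by over 1.5 times for promoters higher at E17.5 (4 without E11.5 replicate 3, 5 without E17.5 replicate 1), promoters lower at E17.5 (2 without E11.5 replicate 2 or E17.5 replicate 2), promoters lower in EPDC (2 without E13.5 replicate 2), regions higher in EPDC (34 without the E12.5 library) and limma calls lower in EPDC (10 without the E12.5 library, 3 without E11.5 replicate 1 or 3 or E13.5 replicate 2). Single elements that changed order were the Dlk1 promoter in EPDC by fold enrichment (0.34 points), the Peg3 promoter in EPDC by intervals (12.8), the stage difference at Peg3 33.9 kb (1.98) and Igf2 21.6 kb (3.28) by fold enrichment, at Igf2r 100.6 kb (-47.8) and 21.9 kb upstream (-34.0) by intervals and at Plagl1 30.2 kb by a depth-normalised score (0.23 on the log2 scale), and, against 1 stage, H19 (-6.61, E17.5), Meg3 42.4 kb (18.5, E11.5) and Igf2r 21.2 kb upstream (-11.5, E11.5). The cause was not tested. Same-numbered stage libraries deviated together with correlations of 0.033, 0.091 and -0.053, and pairs with different numbers ranged from -0.094 to 0.057. Whether same-numbered samples shared more than a number was not tested. With the replicate block, regions numbered 35 higher and 62 lower at E17.5, and limma called 12 and 9.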
